A study of Mus musculus with 6 samples.

Results

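The 8 genes described here, Pou5f1, Sox2, Nanog, Foxd3, Zfp281, Sall4, Utf1 and Dppa4, encode transcription factors and chromatin-bound proteins of the network that holds embryonic cells in a pluripotent state. They were chosen by an exact match of the gene symbol on the array, taking the probe set with the highest mean log2 level where a gene had several, and all 8 were found among 20193 genes tested. The match and the choice of probe set used no difference between groups, but the 8 genes were chosen with earlier results of these data known. The cells were mouse epiblast stem cells (EpiSCs), which are derived from the post-implantation epiblast, carried floxed Dicer alleles (Dicer fx/fx) and were grown on FCS-coated plates in medium with Activin (20 ng/ml) and bFGF (12 ng/ml), in both groups alike. The 3 deleted samples (Dicer -/-) had 0.3 µM 4-OH-tamoxifen for 3 days and none for 2 more days, with RNA taken on day 5. The 3 Dicer fx/fx controls were passaged alongside and had 0 µM tamoxifen, so the drug and the loss of Dicer cannot be told apart. The driver of the recombinase and the number of lines or clones are not given in the sources used here. Each of the 3 independent deletion experiments, numbered 18, 19 and 20, gave 1 control and 1 deleted array, 6 Affymetrix mouse gene arrays in all.

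Pluripotency rests on a small set of DNA-binding proteins that switch on their own genes, each other's genes and a shared set of downstream genes. POU5F1 (also called OCT4) and SOX2 bind DNA as a pair, at a POU site that stands beside a SOX site, and NANOG is one of the genes they control. EpiSCs represent the primed state, in which Activin and Nodal signalling helps to keep Nanog on. Dicer cuts microRNA precursors into mature microRNAs, which lower the stability or translation of messages they pair with. In mouse embryonic stem cells miR-134, miR-296 and miR-470 have been reported to act on sites in the coding sequences of Nanog, Pou5f1 and Sox2, which is why their mature sequences are shown. The comparison of deleted with control cells shows how the messages of the 8 factors stood in cells that had lost the enzyme.

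These are the RefSeq mature sequences (GRCm38.p6), 5′ to 3′, with the seed, bases 2 to 8, in capitals. The 3 seeds differ from one another.
mmu-miR-134-5p: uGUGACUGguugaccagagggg
mmu-miR-296-5p: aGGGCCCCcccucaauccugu
mmu-miR-470-5p: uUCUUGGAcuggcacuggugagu

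RefSeq promoter windows, from 250 bases before to 50 bases after a gene start, were matched for 6 of the 8 genes (8 windows, with 2 starts each for Pou5f1 and Nanog). They were searched on both strands for the POU letters TTTGCAT, for the SOX letters ACAATG, and for the first followed by the second with 0 to 3 bases between them. The joined letters were found in 3 of 32851 RefSeq windows of this length, or 0.00913%, and 2 of those 3 were the overlapping windows of Nanog. The POU letters alone were in 4.63% of the windows and the SOX letters alone in 12.6%. Among the 8 genes the POU letters were in the Nanog and Sox2 windows, and the SOX letters in the Nanog windows and 1 Pou5f1 window. The windows of Nanog and Sox2 are shown because their messages parted in experiment 20, described below. Nanog, chr6:122707315-122707614, plus strand, GRCm38.p6, has the joined letters in capitals from 151 to 138 bases before the start. Sox2, chr3:34649745-34650044, plus strand, GRCm38.p6, has the POU letters, read on the minus strand, in capitals from 99 to 93 bases before the start. These matches describe the letters alone.
Nanog: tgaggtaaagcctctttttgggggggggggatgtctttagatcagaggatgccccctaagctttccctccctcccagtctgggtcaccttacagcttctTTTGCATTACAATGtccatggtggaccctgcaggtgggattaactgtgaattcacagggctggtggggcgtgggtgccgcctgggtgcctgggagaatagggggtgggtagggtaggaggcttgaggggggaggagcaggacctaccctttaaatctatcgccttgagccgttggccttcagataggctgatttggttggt
Sox2: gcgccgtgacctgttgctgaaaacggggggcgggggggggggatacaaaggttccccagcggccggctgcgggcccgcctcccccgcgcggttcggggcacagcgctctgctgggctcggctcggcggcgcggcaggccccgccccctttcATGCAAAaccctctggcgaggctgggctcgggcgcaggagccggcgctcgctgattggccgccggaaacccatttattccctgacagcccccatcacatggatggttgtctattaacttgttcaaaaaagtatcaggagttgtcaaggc

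The deleted gene was examined first. Dicer1 had an array intensity of 1836, 2079 and 2098 in controls 18, 19 and 20 and of 602, 553 and 645 in the deleted samples of the same experiments. All 3 deleted samples were far below all 3 controls, and every array followed its label. Dicer1 was the 1 gene of 20193 (0.00495%) past an adjusted p under 0.05 in the limma fit over all genes, with a log2 difference of -1.74 ± 0.09 (SE, n = 3 arrays per group, adjusted p = 0.045). With the experiment as a block its adjusted p was 0.067, and 0% of genes were called, as also when any 1 array was left out. The arrays had nearly equal medians, between 247.7 and 260.1. Markers of the primed epiblast were present, with 0 of 12 below the array median on all arrays, and 8 of 12 naive pluripotency markers were below it on all arrays. Control 20 stood apart from the other controls: its correlation over genes was r = 0.971 with control 18 and r = 0.977 with control 19, while those 2 reached r = 0.992. Its summed intensity over 12 primitive streak and mesoderm genes was 24533, against 4654 in control 18 and 5105 in control 19. Results from experiment 20 are therefore given beside the other experiments throughout.

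With Dicer lost, the mean differences of the 8 factors went both ways and none was called. In the limma fit over all genes 0 of 8 were called, with adjusted p from 0.833 to 0.9998, and with the experiment as a block 0 of 8 were called, with adjusted p from 0.313 to 0.986. At an unadjusted p under 0.05 there were 0 of the 8 in either fit, against 1211 of all genes without the block and 3451 with it. The median log2 difference was -0.02 over the 8 factors and -0.04 over all genes. The experiments, however, disagreed. In experiments 18 and 19 most factors stood near their controls and Foxd3 was higher, while the dim Dppa4 was 1.38-fold lower in experiment 18. In experiment 20 Nanog, Foxd3 and Utf1 were at least 1.5-fold lower. In bulk RNA, fewer cells of a type and less RNA per cell cannot be told apart.

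**Figure D1:**
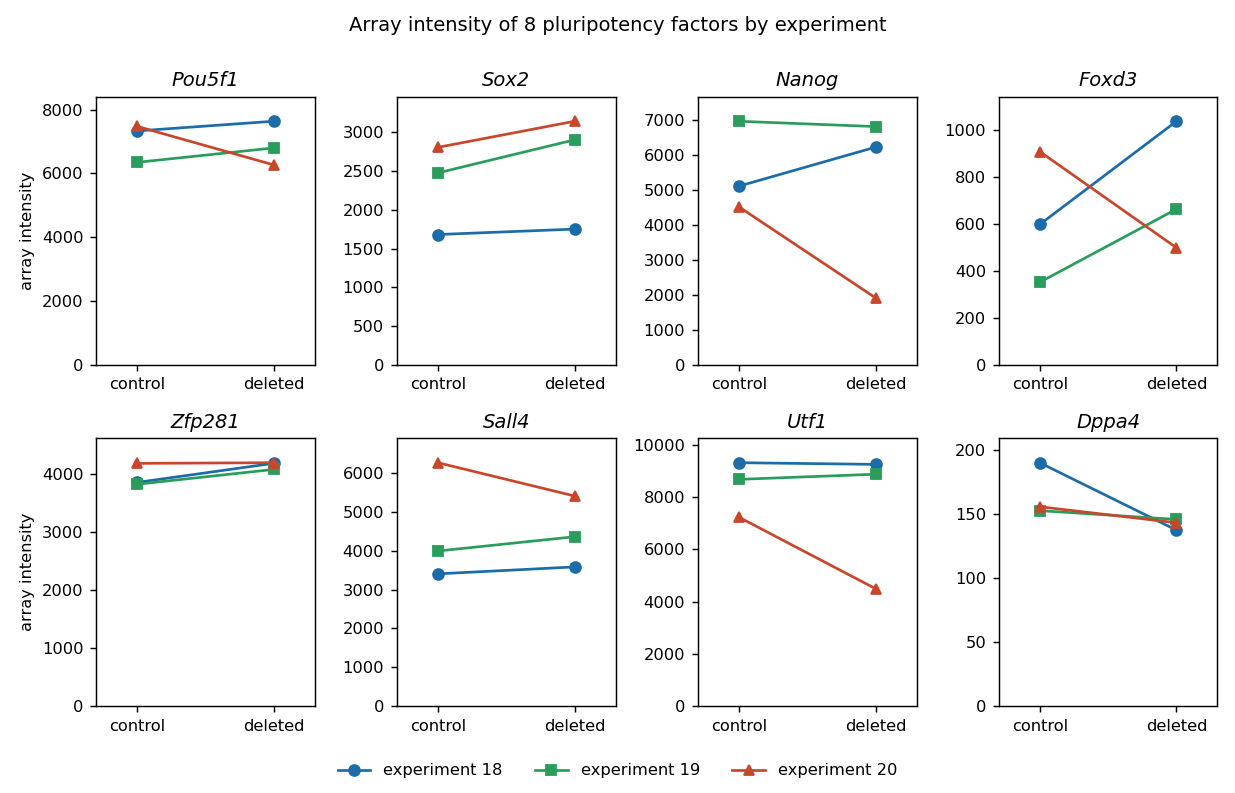
Array intensity (linear axis from 0, its scale differing between panels) of the 8 factors in control and deleted cells, with 1 line for each of experiments 18, 19 and 20 and 1 array per point. Nanog drops from 4518 to 1915 in experiment 20 alone, the Foxd3 lines cross, and the Zfp281 lines stay between 3817 and 4188.

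Pou5f1 (Entrez 18999), the POU-domain factor without which the embryo forms no pluripotent inner cell mass, had an array intensity of 7332, 6348 and 7477 in controls 18, 19 and 20 and of 7636, 6799 and 6268 in the deleted samples. The groups overlapped, and the deleted sample was above its control in experiments 18 and 19 and below it in experiment 20. The log2 difference was 0.06, 0.10 and -0.25 in the 3 experiments, with a mean of -0.03 ± 0.11 (SE, n = 3, limma adjusted p = 0.995). The 95% interval of the mean difference ran from 0.814-fold to 1.17-fold. In experiment 20 the deleted sample kept 83.8% of its control's signal.

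Sox2 (Entrez 20674), the HMG-box partner of POU5F1 that also acts in neural progenitors, had an intensity of 1682, 2478 and 2808 in controls and of 1752, 2905 and 3145 in the deleted samples. Each deleted sample was above its own control, although the groups overlapped because experiment 18 was low in both. Sox2 was 1.04-fold, 1.17-fold and 1.12-fold higher in experiments 18, 19 and 20. The mean log2 difference was 0.15 ± 0.29 without the block (SE, n = 3, limma adjusted p = 0.984) and 0.15 ± 0.06 with it (adjusted p = 0.313). Of the variance of Sox2 over the 6 arrays, 94.5% lay between experiments. With the block, the 95% interval of its mean difference ran from 0.991-fold to 1.24-fold.

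Nanog (Entrez 71950), the homeodomain factor that guards cells against leaving the pluripotent state, gave the lowest log2 difference of the 8 within an experiment. Its intensity was 5106, 6963 and 4518 in controls 18, 19 and 20 and 6222, 6811 and 1915 in the deleted samples. Deleted 18 was above its control, deleted 19 was close to it, and deleted 20 was far below every other array. The 3 experiments gave log2 differences of 0.29, -0.03 and -1.24. In experiment 20 the signal was 2.36-fold lower and 42.4% of the control was left, which placed Nanog at rank 13 from the lowest difference of 20193 genes. Deleted 18 and deleted 19 were 3.25-fold and 3.56-fold above deleted 20, while the highest control was 1.54-fold above the lowest. The mean difference of -0.33 ± 0.52 was not called (SE, n = 3, limma adjusted p = 0.975, or 0.599 with the block). Without the array deleted 20 the mean difference was 0.26.

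Foxd3 (Entrez 15221), a forkhead repressor needed to maintain the epiblast and later the neural crest, had the widest range of differences of the 8. Its intensity was 599, 352 and 910 in controls 18, 19 and 20 and 1039, 664 and 500 in the deleted samples. It was higher with deletion in experiments 18 and 19 and lower in experiment 20, where the control was the highest control and the deleted sample the lowest deleted sample. Foxd3 was 1.74-fold higher in experiment 18 (rank 68 from the highest difference of 20193 genes), 1.89-fold higher in experiment 19 (rank 45) and 1.82-fold lower in experiment 20 (rank 74 from the lowest). The log2 differences of 0.80, 0.92 and -0.87 gave a mean of 0.28 ± 0.42 (SE, n = 3, limma adjusted p = 0.971, or 0.718 with the block). In a block fit of experiments 18 and 19 alone, which was added after seeing the data, Foxd3 was at 0.86 ± 0.08 log2 units (limma adjusted p = 0.011, n = 2 per group). It was the 1 factor of 8 called in that fit, which called 388 genes, 314 of them (1.55% of all genes) higher. Experiment 20, in which Foxd3 was lower, was left out after its values were seen, so this p-value cannot support a rise. Without experiment 18 or without experiment 19 the same fit called 0 of 8.

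Zfp281 (Entrez 226442), a zinc finger protein that binds with POU5F1, SOX2 and NANOG and takes part in the passage from the naive to the primed state, was the steadiest of the 8. Its intensity was 3848, 3817 and 4176 in controls and 4177, 4072 and 4188 in the deleted samples. The deleted samples lay close together, and only control 20 reached them. The log2 difference was 0.12, 0.09 and 0.004 in experiments 18, 19 and 20, with a mean of 0.07 ± 0.06 (SE, n = 3, limma adjusted p = 0.930). The 95% interval of the mean difference ran from 0.944-fold to 1.17-fold.

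Sall4 (Entrez 99377), a zinc finger protein that activates Pou5f1 and recruits the NuRD chromatin complex, differed more between experiments than between groups. Its intensity was 3402, 3989 and 6258 in controls and 3580, 4356 and 5402 in the deleted samples. Both arrays of experiment 20 were above all 4 others, and in that experiment alone the deleted sample was below its control. The log2 difference was 0.07, 0.13 and -0.21, with a mean of -0.004 ± 0.27 without the block and ± 0.09 with it (SE, n = 3, limma adjusted p = 0.9998 and 0.986). The 95% interval with the block ran from 0.855-fold to 1.16-fold.

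Utf1 (Entrez 22286), a chromatin-bound protein that limits transcription from genes poised for differentiation, had an intensity of 9321, 8683 and 7238 in controls and of 9256, 8880 and 4500 in the deleted samples. The pairs of experiments 18 and 19 were level, control 20 was the lowest control, and deleted 20 was the lowest of all arrays. The log2 difference was -0.01, 0.03 and -0.69, and in experiment 20 the 1.61-fold lower signal ranked 193 from the lowest difference of 20193 genes. The mean of -0.22 ± 0.30 was not called (SE, n = 3, limma adjusted p = 0.963, or 0.505 with the block), and without deleted 20 it was 0.12.

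Dppa4 (Entrez 73693), a SAP-domain chromatin protein of early embryos and germ cells, was the 1 factor below the median level of all genes. Its intensity was 190, 153 and 156 in controls and 137, 146 and 143 in the deleted samples. The groups did not overlap, and each deleted sample was below every control. The log2 difference was -0.47, -0.07 and -0.12, with a mean of -0.22 ± 0.10 (SE, n = 3, limma adjusted p = 0.833, or 0.327 with the block). An exact two-sided permutation test over the 6 arrays gave p = 0.1, the smallest that 3 against 3 arrays allow. Of all genes, 9.93% were lower with no overlap of the groups. After a further quantile normalization the difference in experiment 19 was 0.02, and the groups overlapped. The other Dppa4 probe set was dimmer, at 46.6, 43.8 and 43.0 in controls and 44.5, 42.7 and 40.2 in the deleted samples, with a mean difference of -0.07.

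**Figure D2:**
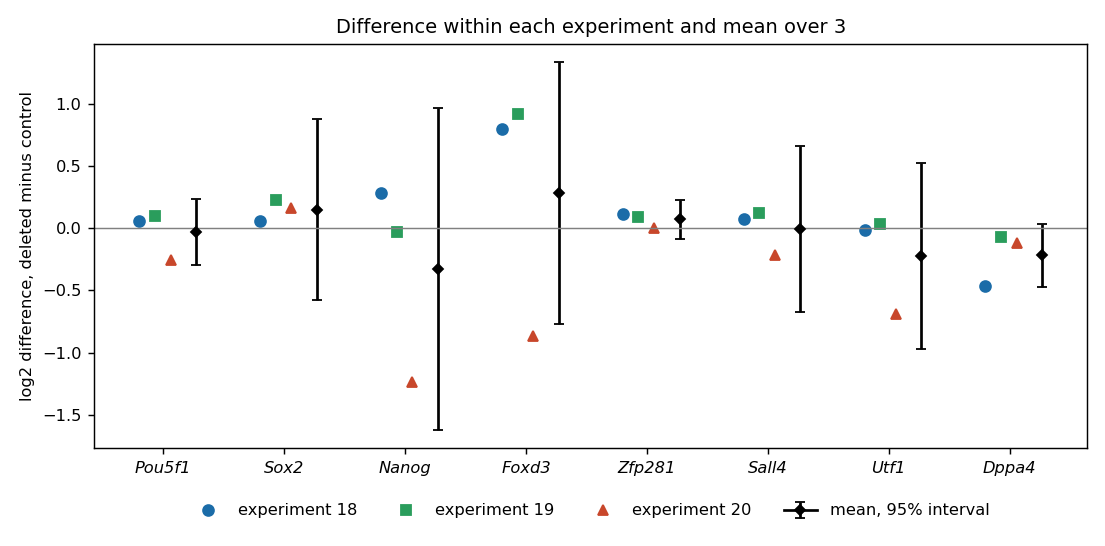
Log2 difference of deleted minus control (vertical axis) for each of the 8 factors, with 1 point per experiment (1 array against 1 array) and the mean over 3 experiments with the 95% interval of the limma fit without the block. Experiment 20 reaches -1.24 for Nanog, -0.87 for Foxd3 and -0.69 for Utf1, and every interval includes 0.

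Set side by side, the experiments split the 8 factors as follows. In experiment 18, 6 of 8 were higher in deleted cells, in experiment 19 again 6 of 8, and in experiment 20 2 of 8. The shares of all genes that were higher were 44.7%, 38.5% and 42.5%. The median log2 difference over the 8 was 0.07, 0.10 and -0.23, against -0.02, -0.05 and -0.03 over all genes. Sox2 and Zfp281 were higher in all 3 experiments, which held for 15.2% of all genes and 23.3% of those at or above the median level. Dppa4 alone was lower in all 3, which held for 28.3% of all genes and 21.6% of the brighter ones, to which Dppa4 does not belong. With arrays centred on their medians Zfp281 was at -0.03 in experiment 20 and left this count. Pou5f1, Foxd3 and Sall4 were higher in experiments 18 and 19 and lower in experiment 20, as were 9.4% of all genes and 12.4% of the brighter ones.

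At a 1.5-fold difference, 3 of 8 factors (Nanog, Foxd3 and Utf1) were lower in experiment 20, where 1.67% of all genes were. No factor was 1.5-fold lower in experiment 18 or 19, where 0.0495% and 0.842% of genes were. Foxd3 alone was 1.5-fold higher in experiment 18 and again in experiment 19, against 1.02% and 1.09% of genes, and 0 of 8 were in experiment 20, against 3.82%. Dicer1 was reduced to a like extent in all 3 experiments, 3.05-fold in 18, 3.76-fold in 19 and 3.25-fold in 20. Whether the response of any factor differs between experiments was not tested, since each experiment holds 1 array per group.

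The controls alone also differed. Control 20 was at least 1.5-fold above both other controls for Foxd3 (1.52-fold over control 18 and 2.58-fold over control 19) and Sall4 (1.84-fold and 1.57-fold), as it was for 4.8% of all genes. It was 1.5-fold below both for 0 of 8, against 5.11% of genes, although Nanog stood at 0.885 and 0.649 of controls 18 and 19 and Utf1 at 0.777 and 0.834. Control 20 was thus the lowest control for Nanog and Utf1 and the highest for Foxd3, and for all 3 genes deleted 20 was the lowest deleted sample. With 1 control per experiment these levels carry no test.

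Some primitive streak and endoderm genes were high in both arrays of experiment 20. In control 20, 5 of 12 streak and mesoderm genes and 6 of 12 endoderm genes were at least 1.5-fold above both other controls, and others such as Wnt3 were level. Tbx6, a paraxial mesoderm gene, was lower there, at 296 against 526 and 383. The summed intensity of 12 streak and mesoderm genes ranged from 4654 to 24533 in controls and from 5011 to 21295 in deleted samples, with control 20 4.81-fold above the next control. T, the streak gene Brachyury, had 348, 271 and 7004 in controls and 1012, 1200 and 11797 in deleted samples, so that it was higher with deletion in every experiment. Mixl1, Eomes, Gsc and Lhx1, which act in the streak and its early derivatives, were the 4 of 12 that were at least 1.5-fold lower with deletion in experiment 20. Mixl1 went from 3673 to 1335 and Eomes from 3973 to 2146 there, and their highest values in experiments 18 and 19 were 281 and 863. These genes were singled out after their values were seen. The 12 endoderm genes summed to 3273, 6049 and 18490 in controls and 3972, 7990 and 17114 in deleted samples. Of these 12, 6, 7 and 4 were higher with deletion in experiments 18, 19 and 20. Without the brightest endoderm genes, Gata6 and Cer1, the other 10 summed to 1.12-fold, 1.23-fold and 1.07-fold of their controls. Without the brightest, T and Eomes, the other 10 streak and mesoderm genes summed in deleted 20 to 0.542 of control 20. The part of the streak and endoderm genes in the values of Nanog, Foxd3 and Utf1 was not tested.

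**Figure D3:**
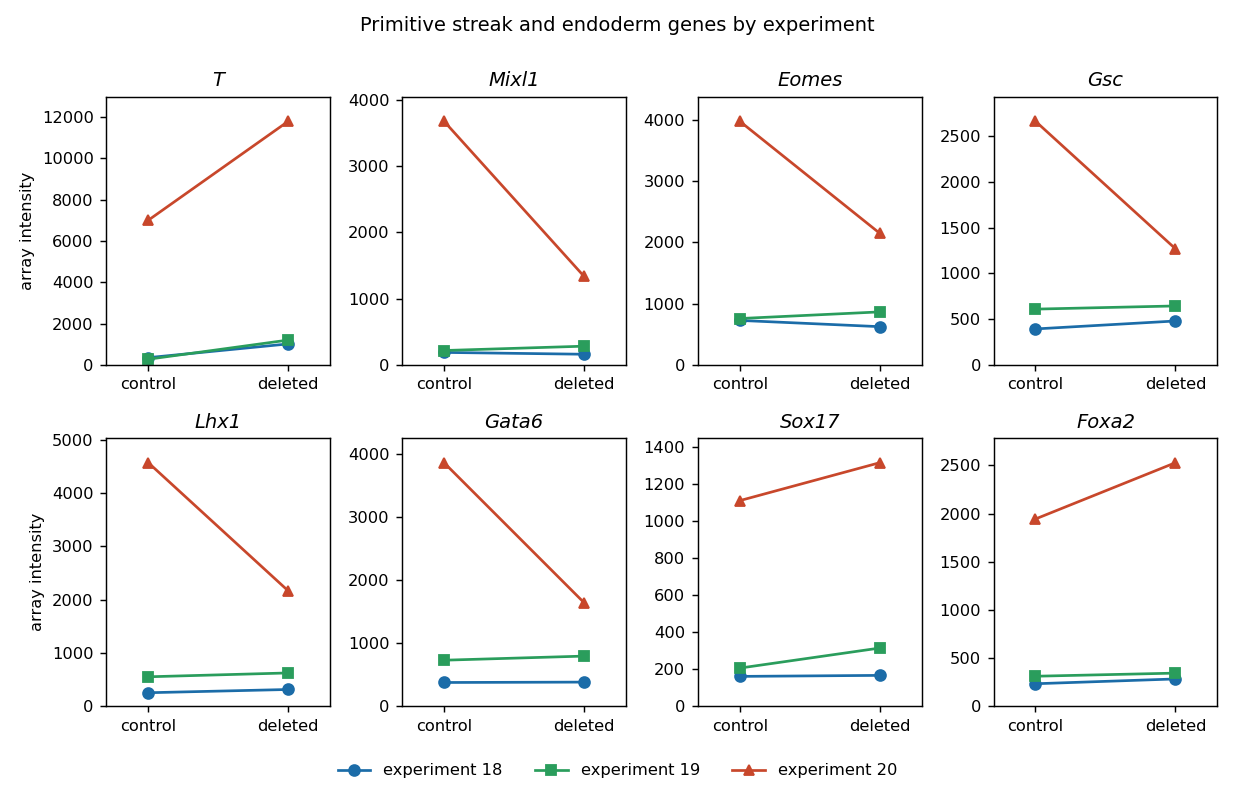
Array intensity (linear axis from 0, its scale differing between panels) of 8 primitive streak and endoderm genes, picked after their values were seen, with 1 line per experiment and 1 array per point. Both arrays of experiment 20 lie above experiments 18 and 19 for each gene, and Mixl1, Eomes, Gsc, Lhx1 and Gata6 drop there with deletion while T goes from 7004 to 11797.

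Markers of other cell types are given by their sums. The summed intensity of deleted over control was 1.25-fold, 1.16-fold and 1.46-fold for 12 fibroblast genes in experiments 18, 19 and 20, and the 10 genes other than the brightest, Vim and Acta2, summed to 1.003-fold, 0.943-fold and 1.06-fold. It was 1.18-fold, 1.02-fold and 1.23-fold for 11 neural genes, of which 7, 7 and 5 were higher. In experiment 20 the neural gene Fabp7, named after its values were seen, went from 2011 to 3326. The median log2 difference of the 11 neural genes was -0.02 there. For 12 trophectoderm genes the summed intensity was 1.05-fold, 0.965-fold and 1.30-fold of the control. Without the brightest of the trophectoderm list, Krt8 and Krt18, the other 10 summed to 0.926-fold, 0.895-fold and 0.809-fold, and 3, 2 and 4 of the 12 were higher. The 12 naive genes summed to 3483, 4337 and 2365 in controls and 3286, 3176 and 2438 in deleted samples, and 5, 2 and 5 of them were higher. Without the brightest naive genes, Klf2 and Fgf4, the other 10 summed to 1.02-fold, 0.860-fold and 1.05-fold. The 12 primed genes summed to 34699, 45130 and 52556 in controls and 39111, 47164 and 46865 in deleted samples, so in experiment 20 alone the deleted sum was below its control. Of the 12, 11, 5 and 3 were higher in experiments 18, 19 and 20, against 44.7%, 38.5% and 42.5% of all genes. Without the brightest primed genes, Zic2 and Cldn6, the other 10 summed to 1.23-fold, 1.13-fold and 0.835-fold.

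For the 5 factors whose log2 level had an SD of at least 0.3 over the 6 arrays, the genes of most similar profile were found by the root mean square (RMS) difference of centred log2 values, taken over the brighter part of the genes (level no lower than the median). For Nanog these were Smad7, an inhibitor of Nodal and TGF-beta signalling (RMS 0.147), the kinase gene Taok3 (0.188) and Ppp1r15a, a phosphatase subunit of the stress response (0.233). Smad7 had an intensity of 1537, 2043 and 1670 in controls and 2200, 2612 and 611 in deleted samples, lowest in deleted 20 as for Nanog. For Utf1 they were Prelid3a (0.061), Pnpla7 (0.078) and Bard1 (0.111). For Sall4 they were Psmc2 (0.023), Med27 (0.029) and Rab28 (0.041), and for Sox2 they included Slc26a2 (0.066) and Gli2 (0.074). Foxd3 had no profile as close: its nearest were Mbnl3 (0.313), Cysltr1 (0.322) and Zfp948 (0.339). These are descriptions over 6 arrays that share 3 experiments.

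Of the 24 genes listed as protein partners of the factors, such as NuRD and BAF chromatin subunits, 22 were measured and 0 were called in either direction. Of these, 8 were higher and 4 lower in all 3 experiments, with a median log2 difference of 0.05. All 22 belong to the brighter genes, of which 23.3% were higher and 21.6% lower in all 3. In the fit without the block, 2 partners had the smallest unadjusted p. These were Wdr5, a subunit of histone methyltransferase complexes, at -0.25 ± 0.12, and Gatad2b, a NuRD subunit, at 0.14 ± 0.07 (SE, n = 3, limma adjusted p = 0.837 for both). With the block, Arid3b had the smallest, at 0.26 ± 0.07 and higher in all 3 experiments (SE, n = 3, limma adjusted p = 0.204). Wdr5 was lower in every experiment and Gatad2b higher in every one.

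Of 20 genes listed as downstream of the factors, 0 were called in either direction, 1 was higher and 5 were lower in all 3 experiments, and the median log2 difference was -0.04. Over all genes, 15.2% were higher and 28.3% lower in all 3. Spp1, which encodes osteopontin, was at 0.47 ± 0.16 and higher in all 3 (SE, n = 3, limma adjusted p = 0.831). Dppa3, a gene of naive cells and germ cells, was at -0.17 ± 0.09 and lower in all 3 (adjusted p = 0.837). The median over the list was 0.14, 0.04 and -0.17 in experiments 18, 19 and 20, and 11, 10 and 4 of 20 were higher, against 44.7%, 38.5% and 42.5% of all genes. Like Foxd3, 6 of the 20 were higher in experiments 18 and 19 and lower in experiment 20, namely Tdgf1, Lefty1, Lefty2, Nodal, Otx2 and Mybl2, which were named after their values were seen. That order held for 9.4% of all genes and 12.4% of the brighter ones.

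Tdgf1, the Nodal co-receptor Cripto, had an intensity of 3603, 4500 and 10104 in controls and 5906, 6765 and 6122 in deleted samples. Its control 20 was the highest array, and the deleted samples lay close together. Nodal itself had 1652, 2604 and 2824 in controls and 2393, 3151 and 1939 in deleted samples. In the block fit of experiments 18 and 19 alone (n = 2 per group, added after seeing the data), Tdgf1 and Lefty1, which encodes a Nodal inhibitor, were the 2 of 20 called (limma adjusted p = 0.020 and 0.037), both higher, against 1.55% of all genes called higher in that fit. Both were lower in experiment 20, which that fit leaves out, so it is no independent test of them. With all 3 experiments their limma adjusted p was 0.984 and 0.993 without the block, and 0.761 and 0.423 with it. Fgf4, a joint target of POU5F1 and SOX2, also named after its values were seen, was instead lower in all 3, at 1198, 1609 and 501 in controls and 966, 803 and 317 in deleted samples.

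**Figure D4:**
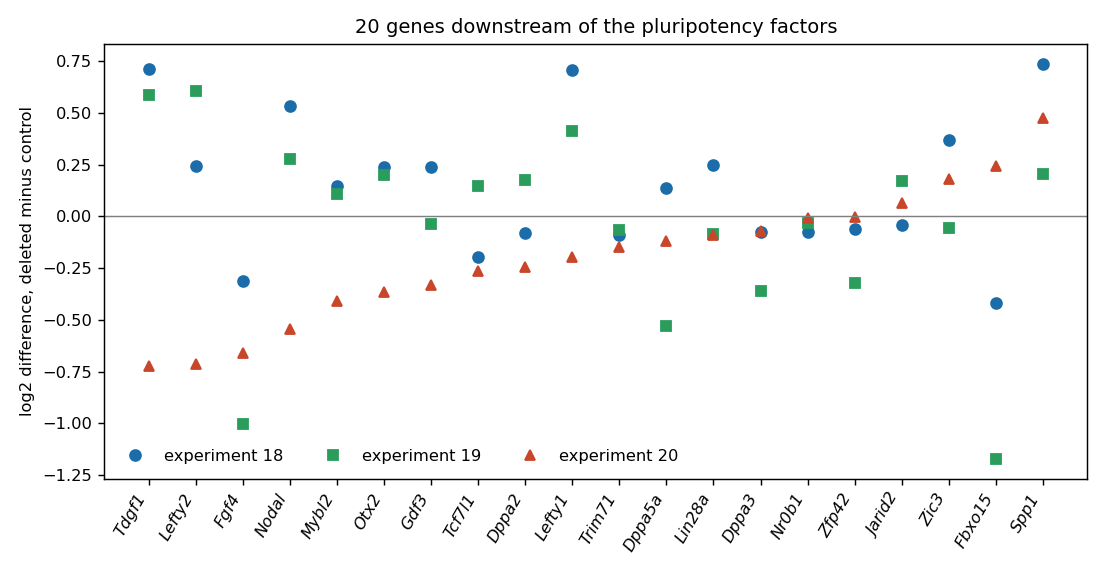
Log2 difference of deleted minus control (vertical axis) for 20 genes downstream of the factors, ordered by experiment 20, with 1 point per experiment (1 array against 1 array). Tdgf1, Lefty2 and Nodal lie above 0 in experiments 18 and 19 and at -0.72, -0.71 and -0.54 in experiment 20, and Spp1 lies above 0 in all 3.

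Of 18 relatives of the factors in the POU, SOX, FOXD, SALL, ZFP and DPPA families, 0 were called in either direction, with 4 higher and 4 lower in all 3 experiments and a median log2 difference of 0.03. Among all genes, 15.2% were higher and 28.3% lower in all 3. Pou3f2, a neural POU factor, had an intensity of 159, 181 and 166 in controls and 129, 128 and 131 in deleted samples. Its groups did not overlap, and 9.93% of all genes were likewise lower without overlap. Its log2 difference was -0.38 ± 0.07 (SE, n = 3, limma adjusted p = 0.824). Pou2f2 was at -0.20 ± 0.07 (adjusted p = 0.831). Both were below the median level of all genes.

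The array carries probe sets for 4 microRNA genes listed for reported action on the factors (for miR-145, in human cells), which read the gene's longer transcript and not the mature microRNA. Of these 0 were called in either direction and 1 was lower in all 3 experiments, as were 28.3% of all genes. Mir134 had an intensity of 242, 229 and 230 in controls and 217, 203 and 218 in deleted samples. Each deleted sample was below every control, as for 9.93% of all genes. The log2 difference of Mir134 was -0.14 ± 0.06 (SE, n = 3, limma adjusted p = 0.833). Mir145a was at -0.08 ± 0.16 (adjusted p = 0.987). The mature microRNAs were not measured on these arrays, and protein levels of the 8 factors were not analysed here.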

How the data were processed

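The authors deposited, per the file headers, a linear array intensity (there called raw) and a log2 value for each probe set of 6 Affymetrix mouse gene arrays. Per the submitters' processing notes these came from RMA and Affymetrix Expression Console 1.2. The deposited log2 values are centred on each probe set's median over the arrays, within 2.31e-06 of the log2 intensity. The series table, also deposited, gives identical log2 values (largest gap 0). Because RMA makes the arrays alike, a general shift of RNA content cannot be seen, and intensities of different genes were not compared.

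The log2 level was restored by adding the probe set median. There were 28856 probe sets, and the 22439 with a single symbol were kept. The 2815 with several symbols and the 3602 with none were left out, with 9 that had several Entrez identifiers, and the brightest probe set stood for each of 20193 genes. Of the symbols, 2175 were updated through Entrez identifiers in RefSeq. No probe set was filtered for low signal, so all 8 factors were tested, and the number of arrays limits the precision. Deleted and control arrays were compared by lmFit and eBayes of limma 3.58.1 (R 4.3.3), with group as the single term. P-values were adjusted over all genes by the Benjamini-Hochberg method, and 0.05 was the threshold. The script was tested on simulated data. Figures used matplotlib 3.10.9 in Python 3.11.15.

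The labels pair the arrays by experiment, and the deviations from the group means of both arrays of an experiment correlated over genes at r = 0.83, 0.61 and 0.80 in experiments 18, 19 and 20. The fit with the experiment as a block is the paired alternative. Alternatives were this block, a test without the dimmer genes (those under the median level), robust eBayes with an intensity trend, a further quantile normalization, median-centred arrays, averaged probe sets per gene, the series table, and omission of single arrays or single experiments. The block fit with 1 experiment left out was added after seeing the data.

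Genes named were the 8 factors, Dicer1, the 3 nearest profiles for each factor with an SD of at least 0.3, and genes from each list. Those were up to 4 called genes or, with none called, the 2 of smallest unadjusted p in the fit without the block. One gene that this rule names is not reported here. Others are named as chosen after their values were seen. The factors and lists were chosen with earlier results of these data known. Not measured under a single symbol were Zfp219 and Mta2 among the partners and Tubb3 among the neural markers.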

Additional observations from a re-analysis of the deposited data

How the results depend on the processing

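The number of genes called, 1 without the replicate block, was 0 with it and 0 with trend and robust settings. It was 0 whenever 1 array or 1 experiment was left out. In the paired fit with 1 experiment left out, chosen after seeing the data, it was 0 without experiment 18 or 19 and 388 without experiment 20, where 1 factor, Foxd3, was called. In all other settings 0 of 8 factors were called, and the replicate block changed no call but that of Dicer1, whose adjusted p went to 0.067. The number of factors of 1 direction in all experiments, 3, was 4 to 6 with 1 experiment left out, which leaves 2 to agree, and 2 under the filter, quantile normalization or centring.

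Mean log2 differences changed sign as follows. Centring arrays on their medians moved Sall4 to 0.000696. With 1 array or 1 experiment left out, Pou5f1 ranged from -0.11 to 0.079, Sox2 from -0.066 to 0.41, Nanog from -0.66 to 0.26, Foxd3 from -0.074 to 0.86, Sall4 from -0.19 to 0.25 and Utf1 from -0.40 to 0.12. In the added block fits Foxd3 was at -0.035 without experiment 19. Without experiment 20, Pou5f1 was at 0.079, Nanog at 0.13, Sall4 at 0.10 and Utf1 at 0.011. The cause was not tested. Zfp281 and Dppa4 kept their sign in the 19 and 18 alternatives they entered, and the filter at the median level left Dppa4 out. The differences within single experiments moved by at most 0.081 under quantile normalization and centring (48 values), with Nanog in experiment 20 between -1.27 and -1.23. Averaging its 2 probe sets moved Dppa4 in experiment 18 from -0.47 to -0.27. Among the 48 3 small ones changed sign, namely Dppa4 in experiment 19 (0.02, quantile normalization), and with centring Nanog in experiment 19 (0.01) and Zfp281 in experiment 20 (-0.03). The series table gave identical values, so that alternative is void. Each experiment holds 1 array per group, which limits all statements on experiment 20.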

Other observations

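Among the relatives of Foxd3, the forkhead genes Foxd1 and Foxd4 stood out in deleted 20. Foxd1 had an array intensity of 94.1, 108 and 138 in controls 18, 19 and 20 and 101, 122 and 321 in the deleted samples. Foxd4 had 118, 121 and 168 in controls and 130, 129 and 433 in the deleted samples. For both, deleted 20 was above every other array, in the experiment in which Foxd3 was lower with deletion. The log2 difference in experiment 20 was 1.22 for Foxd1 and 1.37 for Foxd4, and neither was called over all 3 experiments (limma adjusted p = 0.931 and 0.935, n = 3 arrays per group). At least 1.5-fold higher in that experiment were 3.82% of all genes. Foxd2, the other FOXD relative listed, stayed near its controls, at 267, 255 and 274 in controls and 261, 248 and 259 in the deleted samples. Foxd1 and Foxd4 were chosen after their values were seen.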
